A study of Mus musculus with 6 samples.

Results

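The genes described here are 10 immediate early genes: the AP-1 subunit genes Fos, Fosb, Jun, Junb and Jund, the related bZIP gene Atf3, and Egr1, Ier2, Ier3 and Dusp1. They were taken by gene symbol from the 47729 genes in the count table, by no threshold on their values. All 10 were found in the table, and 9 had enough reads for the test; Atf3 did not. The samples are bulk RNA-seq libraries of mouse bone marrow, 3 from mice that lack the SNORD113-114 cluster (called cluster KO) and 3 from wildtype mice (called WT). That cluster encodes many box C/D snoRNAs, which guide chemical modification of other RNAs, inside the imprinted domain around Dlk1 and Meg3. The comparison of genotypes asks which marrow transcripts differ when the cluster is missing. The sources used here do not state strain, sex, age, how the deletion was made, or whether marrow cells were sorted. They also do not say that each library is a different animal, so the p-values below measure the spread between libraries, which may in part be technical.

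Immediate early genes are transcribed within minutes of a stimulus without new protein synthesis, and their mRNAs are short-lived. MAP kinases switch them on through serum response factor with its ETS partners and through CREB-type factors. Fos and Jun proteins then pair through leucine zippers as the AP-1 transcription factor, Egr1 encodes a zinc finger factor, and Dusp1 encodes a phosphatase that switches the MAP kinases off again. In bone marrow these genes are known to respond to cytokines, adhesion and cell handling.

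Each library held between 17663369 and 23459168 counts on genes. Over all 15686 genes tested, 4382 (27.9%) were called, 2487 (15.9%) higher and 1895 (12.1%) lower in cluster KO, at an adjusted p under 0.05 (edgeR quasi-likelihood test, Benjamini-Hochberg over all genes tested). Those counts were 1258 and 742 without cluster KO 2, 1412 and 944 without WT 2, and 1303 and 860 without WT 3. The reads did not allow a check of the deletion: the 23 annotated snoRNA genes from Rian to Mirg had 0 counts in the cluster KO libraries together and 1 in the wildtype libraries together. Their host transcript Rian had 9, 6 and 3 counts in cluster KO 1, 2 and 3 and 11, 5 and 38 in WT 1, 2 and 3. Reads assigned to no counted feature took 10.05, 8.59 and 7.29% of all reads in cluster KO 1, 2 and 3. In WT 1, 2 and 3 they took 10.03, 10.5 and 11.06%. They may include reads inside introns, since the counting mode is not stated. Reads with more than 1 alignment took 13.38 to 14.68% in cluster KO and 16.12 to 16.81% in wildtype libraries.

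Dusp1, Junb, Ier2, Fos, Ier3 and Jund were higher in cluster KO marrow, between 1.5-fold and 3.77-fold by the ratio of mean levels, while Fosb, Jun and Egr1 did not pass the test. Of the 9 genes tested, 6 rose and 0 fell, beside 15.9% of all genes called higher, 12.1% called lower and 27.9% called in either direction. The rises numbered 4 without WT 2, without WT 3, or with length and GC trends removed, where Ier3 and Jund were lost. The 3 cluster KO libraries lay above all wildtype libraries for 6 of the 9, beside 22.9% of all genes tested (46% lay apart in either direction). The median log2 fold change of the 9 was 0.64, and that of all tested genes was 0. Summed over the 10 genes, the level was 564, 745 and 852 CPM (counts scaled to a common TMM library size) in cluster KO 1, 2 and 3, and 359, 361 and 355 CPM in WT 1, 2 and 3. In whole marrow, more cells that express a gene and more RNA per cell cannot be told apart. Of the cell type markers listed, 8 of 11 B lineage genes were also higher in cluster KO. So were 6 of 12 stem and early progenitor genes and 6 of 14 neutrophil genes. On the dendritic cell list 5 of 7 tested genes rose, though not Siglech and Bst2, and Flt3 is shared with the early progenitor list. Erythroid genes fell in 5 of 10, megakaryocyte and platelet genes in 2 of 7, and Kit fell among the progenitor genes. Their values are given with the other cell type markers at the end.

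**Figure D1:**
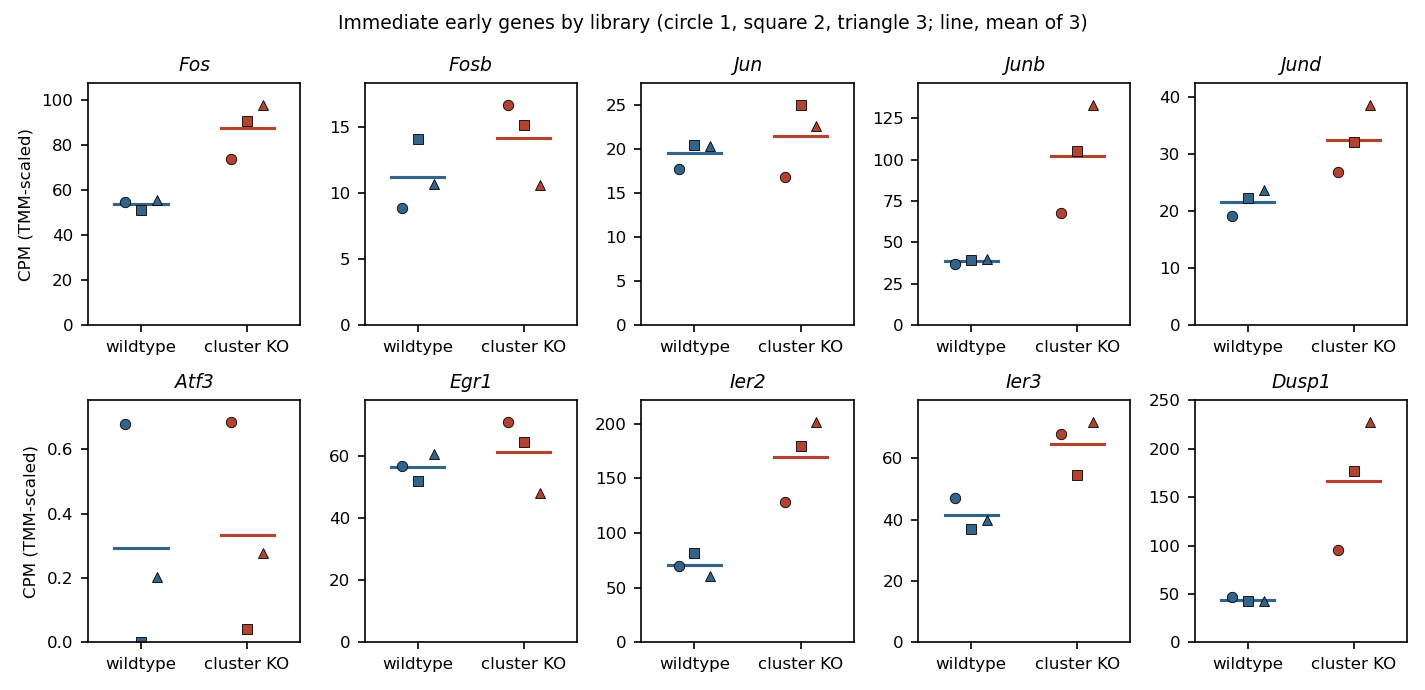
Level of each of the 10 genes in CPM (vertical axis from 0, a scale of its own per gene) in 3 wildtype and 3 cluster KO libraries, with a line at the mean of 3. For Fos, Junb, Jund, Ier2, Ier3 and Dusp1 all cluster KO points lie above all wildtype points, while those of Fosb, Jun, Egr1 and Atf3 overlap.

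Dusp1, the MAP kinase phosphatase gene (ENSMUSG00000024190; chromosome 17, 26505590 to 26562128, mm10), changed most. It stood at 95.2, 177 and 228 CPM in cluster KO 1, 2 and 3 and at 46.8, 42.6 and 43.1 CPM in WT 1, 2 and 3. The lowest cluster KO library was thus 2.03 times the highest wildtype library. The log2 fold change was 1.91 (SE 0.26, edgeR adjusted p = 0.00229), and it ran from 1.62 without cluster KO 3 to 2.18 without cluster KO 1. The counts carry no strand, and 11 of the gene's 3311 exonic bases overlap Ergic1 on the opposite strand. Ergic1, which encodes a protein of the early secretory pathway, was itself higher (log2 fold change 0.93, SE 0.22, edgeR adjusted p = 0.0128).

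Among the Jun family, Junb and Jund rose and Jun did not pass. Junb (ENSMUSG00000052837; chromosome 8, 84974484 to 84978718), often a weaker activator than Jun and a brake on myeloid proliferation, was at 67.6, 105 and 133 CPM in cluster KO 1, 2 and 3. Its wildtype values were 37.0, 39.4 and 39.9 CPM, so that the groups lay apart and the wildtype libraries were close together. The log2 fold change was 1.40 (SE 0.22, edgeR adjusted p = 0.00297). Of the 2301 exonic bases of Junb, 173 overlap Prdx2, an abundant peroxiredoxin gene on the other strand that fell (log2 fold change -0.33, SE 0.09, edgeR adjusted p = 0.0195), at 1239 to 1324 CPM in cluster KO and 1548 to 1707 CPM in wildtype libraries.

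Jund (ENSMUSG00000071076; chromosome 8, 70698949 to 70700616), the Jun gene that is usually expressed without a stimulus, was at 26.9, 32.1 and 38.6 CPM, beside 19.1, 22.2 and 23.6 CPM in wildtype libraries. The groups did not overlap, but by a small margin: the lowest cluster KO library was 1.14 times the highest wildtype library. The log2 fold change was 0.59 (SE 0.18, edgeR adjusted p = 0.036). The call did not hold without cluster KO 2, cluster KO 3, WT 1, WT 2 or WT 3, each left out in turn (edgeR adjusted p = 0.099, 0.107, 0.118, 0.0953 and 0.0713). With length and GC trends removed from the counts the log2 fold change was 0.36 (edgeR adjusted p = 0.132), and the lowest adjusted p of any alternative was 0.00863, with DESeq2. The antisense gene Gm11175 overlaps 877 of the 1668 bases of Jund and had 0 counts in all 6 libraries. Reads set aside as ambiguous between genes took 2.71 to 2.95% of all reads, and whether reads of Jund are among them cannot be seen. The 0 is therefore no check of the overlap, and the Jund level may be too low. The same limit applies to the smaller overlaps of Dusp1, Junb and Jun.

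Jun (ENSMUSG00000052684; chromosome 4, 95049034 to 95052222), the founding AP-1 subunit, was at 16.8, 25 and 22.6 CPM in cluster KO and 17.8, 20.5 and 20.4 CPM in wildtype libraries. The lowest and the highest value both came from cluster KO libraries. Its log2 fold change was 0.14, with a 95% interval from -0.29 to 0.57 (edgeR adjusted p = 0.62). The antisense gene Junos, which overlaps 232 of the 3189 bases of Jun, had between 4 and 18 counts per library.

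Set on the same scale of CPM per kilobase of transcript, Junb made up 63.6, 68.2 and 70.9% of the summed level of the Jun family in cluster KO 1, 2 and 3. In WT 1, 2 and 3 its part was 54.5, 52.5 and 51.7%. Jun made up 9, 9.2 and 6.8% against 14.9, 15.5 and 15%, and Jund 27.4, 22.6 and 22.3% against 30.6, 32.1 and 33.3%. The cluster KO and wildtype values did not overlap for any of the 3 genes, at these lengths. The percentages rest on annotated median transcript lengths, and for Jund on counts that the overlap with Gm11175 may have lowered. In CPM without any length, every cluster KO library held more Jund relative to Jun and less relative to Junb than any wildtype library. The part of Jund in the summed CPM of the family was also lower in every cluster KO library. Other lengths were not tried.

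Of the Fos pair, Fos rose and Fosb did not pass. Fos (ENSMUSG00000021250; chromosome 12, 85473890 to 85477273), the subunit that binds DNA only as a partner of Jun proteins, was at 73.8, 91.0 and 98.0 CPM in cluster KO and at 54.7, 51.4 and 55.5 CPM in wildtype libraries. The groups lay apart, with a log2 fold change of 0.70 (SE 0.14, edgeR adjusted p = 0.00664). Fosb (ENSMUSG00000003545; chromosome 7, 19302696 to 19310051), a subunit with truncated and long-lived forms, was at 16.6, 15.1 and 10.6 CPM, beside 8.85, 14.1 and 10.6 CPM in wildtype libraries. Its groups overlapped, and the log2 fold change was 0.34 (95% interval -0.21 to 0.89, edgeR adjusted p = 0.334). Fos made up 88.3 to 94% of the summed Fos and Fosb level per kilobase in cluster KO and 86.2 to 91.3% in wildtype libraries, ranges that overlap.

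Ier2 and Ier3 rose, while Egr1 did not pass. Ier2 (ENSMUSG00000053560; chromosome 8, 84661331 to 84662852), a nuclear growth response gene, was at 128, 180.0 and 201 CPM in cluster KO 1, 2 and 3 and at 70.3, 81.7 and 60.9 CPM in WT 1, 2 and 3. Its lowest cluster KO library was 1.57 times the highest wildtype library, and the log2 fold change was 1.26 (SE 0.18, edgeR adjusted p = 0.00251). Ier3 (ENSMUSG00000003541; chromosome 17, 35821684 to 35822923), which modulates apoptosis and ERK and NF-kappaB signalling, was at 67.8, 54.6 and 71.7 CPM, beside 47.2, 37.0 and 39.9 CPM in wildtype libraries. The groups of Ier3 did not overlap, and its log2 fold change was 0.64 (SE 0.16, edgeR adjusted p = 0.0147). The Ier3 call was lost without WT 2 (edgeR adjusted p = 0.0713), without WT 3 (0.0602), and with length and GC trends removed (log2 fold change 0.40, adjusted p = 0.0765). The lowest adjusted p of any alternative was 8.1e-04, with DESeq2.

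Egr1 (ENSMUSG00000038418; chromosome 18, 34859823 to 34864984), the zinc finger factor that also keeps stem cells in the niche, was at 70.8, 64.5 and 48.1 CPM in cluster KO and 56.7, 52.0 and 60.7 CPM in wildtype libraries. Both the highest and the lowest value came from cluster KO libraries. The log2 fold change was 0.12 (95% interval -0.25 to 0.48, edgeR adjusted p = 0.631), and it was -0.01 without cluster KO 1. Atf3 (ENSMUSG00000026628; chromosome 1, 191170296 to 191218039), a stress-induced bZIP repressor, had 15, 1 and 6 raw counts in cluster KO 1, 2 and 3 and 15, 0 and 4 in WT 1, 2 and 3. Cluster KO 2, WT 2 and WT 3 were near or below the limit that a count of 0 allows, 3 counts. The gene did not pass the low-count filter, and no fold change is given.

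**Figure D2:**
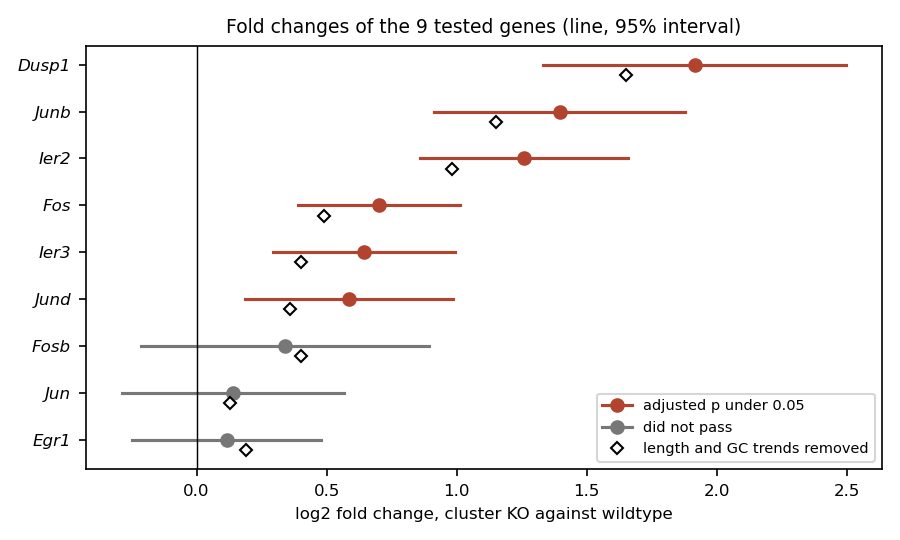
Log2 fold change of the 9 tested genes, cluster KO against wildtype (horizontal axis), with its 95% interval from the edgeR fit; diamonds give the value with length and GC trends removed. Dusp1, Junb and Ier2 lie at 1.91, 1.40 and 1.26, and the intervals of Fosb, Jun and Egr1 span 0.

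Levels can be set side by side only per transcript length, in CPM per kilobase. In wildtype marrow the order was Ier2 (46.6), Ier3 (36.6), Fos (25.6), Dusp1 (24.4), Junb (21.4), Egr1 (15.01), Jund (12.98), Jun (6.12), Fosb (3.11) and Atf3 (0.151). Neighbours whose library ranges overlapped were Ier2 with Ier3, Fos with Dusp1, and Egr1 with Jund. In cluster KO marrow Dusp1 stood at 92.1 ± 36.9 CPM per kilobase (SD, n = 3), second after Ier2 at 112 ± 24.8, followed by Ier3 (57.2), Junb (56.3) and Fos (41.6). The library ranges of each neighbouring pair among these 5 genes overlapped. Below them the order was Jund (19.5), Egr1 (16.3), Jun (6.74), Fosb (3.92) and Atf3 (0.172), where only Jund and Egr1 overlapped.

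**Figure D3:**
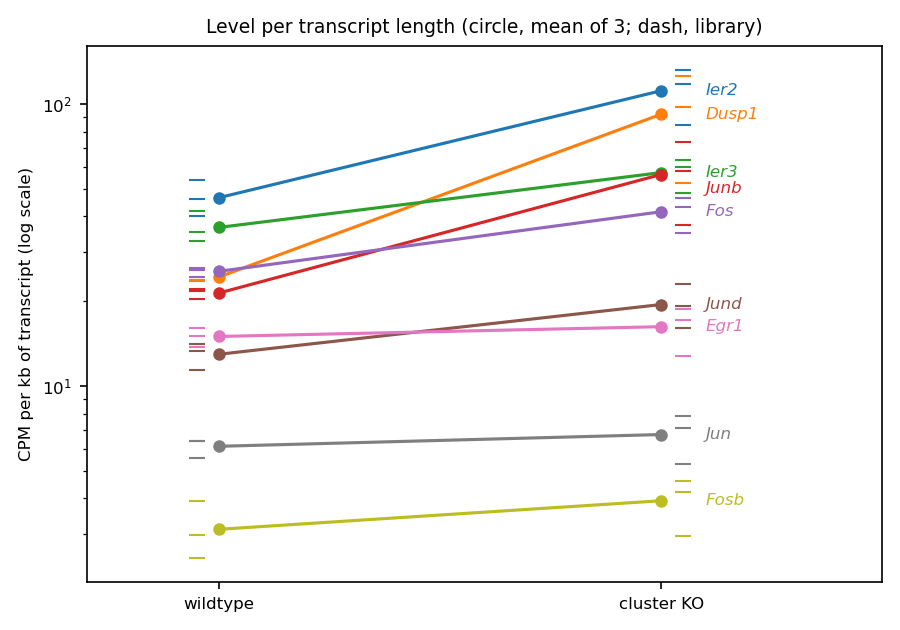
Level in CPM per kilobase of transcript (log axis) in wildtype (left) and cluster KO (right) for 9 genes; circles and lines give the means of 3 libraries and dashes the libraries. Dusp1 goes from the fourth place in wildtype, at 24.4, to the second in cluster KO, at 92.1, while Jun and Egr1 keep nearly level lines.

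The cluster KO libraries differed among themselves more than the wildtype libraries did for several of these genes. For Dusp1 the coefficient of variation was 40.1% over the cluster KO and 5.3% over the wildtype libraries, and for Junb 32.2% and 4%. Fosb and Ier3 varied about equally in both genotypes (22.2 and 23.7%, 13.8 and 12.6%). Cluster KO 1 was the lowest of the 3 cluster KO libraries for Fos, Jun, Junb, Jund, Ier2 and Dusp1, and cluster KO 3 was the highest for Fos, Junb, Jund, Ier2, Ier3 and Dusp1. Fosb and Egr1 were the other way round, highest in cluster KO 1 and lowest in cluster KO 3, so that the 9 genes did not move as 1 block within the genotype. The share of reads assigned to no counted feature ran in the same order as Fosb and Egr1, at 10.05, 8.59 and 7.29%. Its part in these differences was not tested. Summed markers of neutrophils (20680.0, 11920.0 and 10900.0 CPM), monocytes (295, 191 and 180.5 CPM), T and NK cells (662, 555 and 514 CPM), stroma (155, 85.4 and 52.2 CPM) and the B lineage (2148, 2110.0 and 1950.0 CPM) also ran from cluster KO 1 down to cluster KO 3. Those of dendritic cells (623, 723 and 757 CPM), erythroid cells (4245, 5134 and 5273 CPM) and early progenitors (1714, 1750.0 and 1756 CPM) ran up. Dusp1, Junb, Ier2 and Fos ran up too. Members of these lists did not all follow their sum. Among progenitor markers Kit (308, 286 and 242 CPM) ran down and Cd34 (143, 171 and 239 CPM) ran up. The erythroid sum was mostly Car1 (3572, 4237 and 4404 CPM), and Hba-a1 (62.8, 78.3 and 49.8 CPM) did not follow that order. The part of the cell mix in these orders was not tested. The order with cluster KO 1 lowest and cluster KO 3 highest was common in the table, in 67.1% of all genes called higher and 27.6% of all genes tested. Without cluster KO 3, Dusp1 (1.62), Junb (1.16), Ier2 (1.12) and Fos (0.61) still passed at these log2 fold changes, and without cluster KO 1 they passed at 2.18, 1.61, 1.42 and 0.80.

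**Figure D4:**
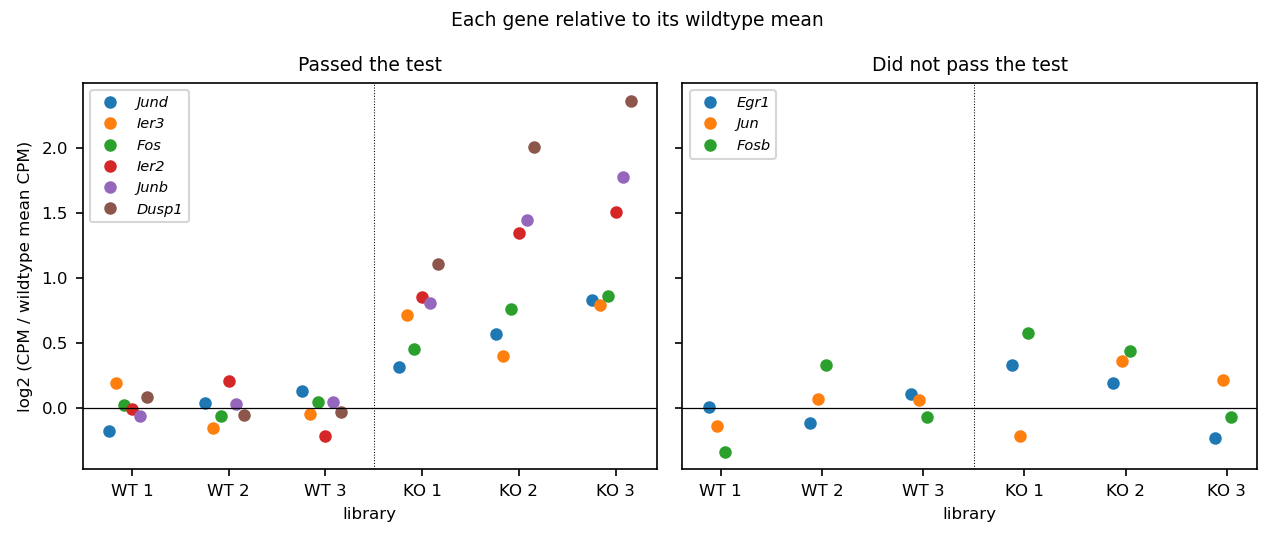
Log2 ratio of each library's CPM to the gene's wildtype mean (vertical axis) for the 6 genes that passed the test (left) and the 3 that did not (right), by library. Dusp1, Junb and Ier2 are highest in KO 3 and lowest among the KO libraries in KO 1, and Fosb and Egr1 are highest in KO 1.

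The promoters of Dusp1, Fos and Junb are shown because these genes rose and had like profiles over the libraries, and that of Jun because it did not pass. The stretches lie upstream of the RefSeq start on GRCm38.p6 and leave out annotated exons. Capitals mark TGACG or its reverse complement CGTCA, the core of the site that CREB and ATF proteins bind.
Dusp1, chr17:26508520-26508722, minus strand: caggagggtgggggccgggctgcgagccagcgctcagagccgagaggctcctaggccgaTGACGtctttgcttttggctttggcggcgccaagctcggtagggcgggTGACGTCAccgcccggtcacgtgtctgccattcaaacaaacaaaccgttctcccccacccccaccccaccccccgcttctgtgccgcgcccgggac
Fos, chr12:85473640-85473889, plus strand: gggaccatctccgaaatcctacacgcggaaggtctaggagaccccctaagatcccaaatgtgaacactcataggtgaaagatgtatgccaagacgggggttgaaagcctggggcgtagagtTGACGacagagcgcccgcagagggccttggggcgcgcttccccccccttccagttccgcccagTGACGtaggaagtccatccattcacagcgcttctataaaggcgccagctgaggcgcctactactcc
Junb, chr8:84978749-84978998, minus strand: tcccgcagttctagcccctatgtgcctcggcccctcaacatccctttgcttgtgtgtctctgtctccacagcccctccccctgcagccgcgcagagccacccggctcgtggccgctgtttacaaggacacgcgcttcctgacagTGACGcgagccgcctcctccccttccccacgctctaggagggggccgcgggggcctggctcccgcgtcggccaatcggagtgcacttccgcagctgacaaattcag
Jun, chr4:95052223-95052472, minus strand: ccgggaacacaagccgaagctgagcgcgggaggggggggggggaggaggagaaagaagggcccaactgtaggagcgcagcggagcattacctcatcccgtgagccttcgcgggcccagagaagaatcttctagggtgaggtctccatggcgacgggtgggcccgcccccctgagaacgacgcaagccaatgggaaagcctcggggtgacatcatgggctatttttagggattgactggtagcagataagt

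Of the 8 genes with an entry among the RefSeq promoters, 5 held TGACG on either strand in the whole 250 bases before the start, exons included: Dusp1, Fos, Junb, Fosb and Atf3. The motif was present in 17.8% of 32851 promoter windows of the same length. In Dusp1 the letters begin 191, 143 and 140 bases before the start, the latter pair overlapping within the palindrome TGACGTCA, which 1.55% of all windows held. Fos had TGACG at 129 and 66 bases and Junb at 106 bases before the start. Fosb, which did not pass the test, held it too, and Ier3 and Jund, which rose, did not. For Jund the RefSeq start lies 1210 bases upstream of the GENCODE start, so that its window covers other sequence than the one next to the counted exon. TGACTCA or TGAGTCA, the AP-1 site, and the CArG box of serum response factor were in none of the 8 windows (4.46% and 1.47% of all windows, both strands), and TATAAA was in Fos alone (12.4% of all). Egr1 and Ier2 had no entry, and sequence outside the 250 bases was not searched, so sites there would be missed. These matches describe letters in 1 window and say nothing of binding.

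Further immediate early genes were given by a list of 35, of which 30 were tested, 8 rose and 0 fell, beside 15.9% higher and 12.1% lower among all genes tested, with a median log2 fold change of 0.19. The mRNA decay factor gene Zfp36 was at 65.9, 80.2 and 82.2 CPM in cluster KO and 41.0, 41.6 and 46.1 CPM in wildtype libraries, for a log2 change of 0.83 (SE 0.14, edgeR adjusted p = 0.00374). Nfkbia, the feedback inhibitor of NF-kappaB, was at 158, 163 and 192 CPM, beside 108, 111 and 98.2 CPM in wildtype, for a log2 change of 0.70 (SE 0.12, edgeR adjusted p = 0.00429), and the groups lay apart. The zinc finger gene Klf6 changed by 0.71 (SE 0.14). Arc, known from neurons, was near the floor at 1.48 to 1.72 CPM against 0.205 to 0.452 CPM, and its call was lost without cluster KO 2 and without WT 3 (edgeR adjusted p = 0.055 and 0.051, range over the alternatives 0.00281 to 0.055). Gadd45b, Ppp1r15a, Sgk1 and Btg2 made up the rest of the 8. The number that rose was 4 without cluster KO 2, and 5 without WT 1 or without WT 3. Of those that did not pass, Myc was at 185, 278 and 378 CPM, beside 190.5, 179.9 and 177 CPM in wildtype, for a log2 change of 0.62 (SE 0.21, edgeR adjusted p = 0.0506), named after its values were seen.

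**Figure D5:**
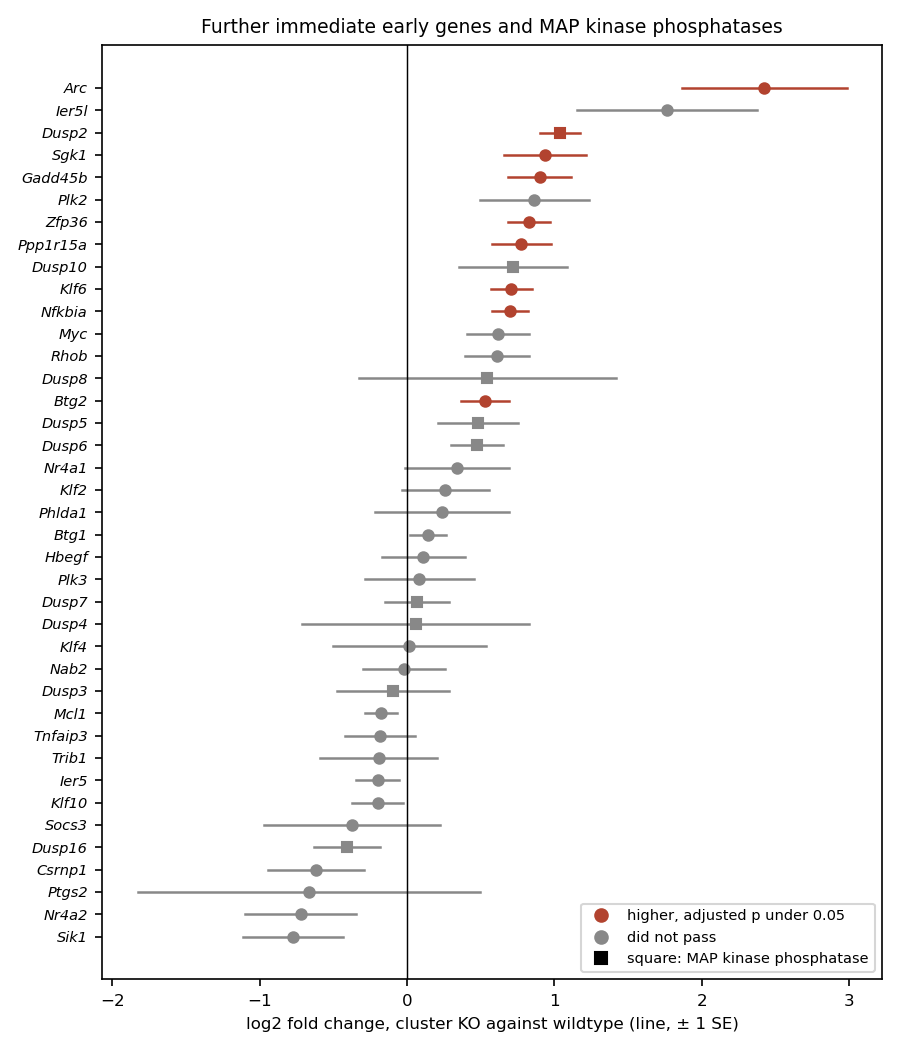
Log2 fold change, cluster KO against wildtype (horizontal axis, lines of ± 1 SE), of 30 further immediate early genes (circles) and 9 MAP kinase phosphatase genes (squares). Red marks the 8 and 1 genes that passed the test; none of either list passed in the other direction.

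Among other MAP kinase phosphatases 1 of 9 rose and 0 fell, no larger a share than the 15.9% higher among all genes tested, with a median log2 fold change of 0.47. The gene that rose was Dusp2, whose nuclear product is induced in blood cells, at 141, 180.4 and 189 CPM, beside 78.9, 88.9 and 81.5 CPM in wildtype, for a log2 change of 1.04 (SE 0.14, edgeR adjusted p = 0.0021). As for Dusp1, the cluster KO libraries lay above the wildtype libraries. Of other AP-1 and bZIP partners 1 of 13 rose and 1 fell, also no larger than the shares of all genes (15.9% and 12.1%), with a median of 0.07. Batf, a partner of Jun proteins in lymphocytes, was at 59.7, 59.2 and 62.3 CPM, beside 40.8, 33.2 and 28.0 CPM in wildtype, for a log2 change of 0.83 (SE 0.16, edgeR adjusted p = 0.00585). Atf7 fell by 0.61 on the log2 scale (SE 0.19, edgeR adjusted p = 0.0344), shares 1284 of 10988 exonic bases with Gm28047, and its call was lost without any 1 of cluster KO 2, cluster KO 3, WT 1, WT 2 and WT 3 (edgeR adjusted p up to 0.0983, from 0.0069 over all alternatives). Fosl1 was too low to be tested, and Fosl2 did not pass.

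Of the kinases upstream 5 of 23 rose and 4 fell, with a median log2 fold change of 0.02. These counts are near the shares of all genes tested, 15.9% higher and 12.1% lower, and are no result about kinases as a list. Map2k3, which activates p38, rose by 1.01 (SE 0.20), and Map2k7, which activates JNK, changed by -1.21 (SE 0.25) on the log2 scale, though 1349 of the 3829 exonic bases of Map2k7 are shared with the overlapping gene model Gm49320. Map2k1 (0.66, SE 0.15) and Rps6ka1 (0.70, SE 0.18) rose, and Mapk8 (-0.55, SE 0.17), Rps6ka3 (-0.46, SE 0.14) and Rps6ka4 (-0.67, SE 0.21) fell. Map2k1 and Rps6ka1 were not called without cluster KO 2, WT 2 or WT 3, where 2 kinases were higher. Mapk8, Rps6ka3 and Rps6ka4 were not called without the low-count filter or without any 1 of cluster KO 2, cluster KO 3, WT 1, WT 2 and WT 3, where 1 kinase was lower.

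Of the serum response factor, ETS partner and CREB genes 1 of 14 rose and 4 fell, beside 15.9% and 12.1% of all genes tested, with a median log2 fold change of -0.41. The ETS factor gene Elk3 rose by 0.65 (SE 0.14), though not without cluster KO 2 (edgeR adjusted p = 0.0507, from 1.4e-04 over the alternatives). Srf itself was at 18.9, 15.8 and 13.9 CPM in cluster KO and 21.4, 22.7 and 29.6 CPM in wildtype libraries, for a log2 change of -0.60 (SE 0.20, edgeR adjusted p = 0.0452). The acetyltransferase genes Ep300 and Crebbp changed by -0.61 (SE 0.18) and -0.55 (SE 0.16), and Atf1 by -0.37 (SE 0.12) on the log2 scale. The Atf1 call also did not hold with DESeq2 size factors (edgeR adjusted p = 0.0521), in limma-voom (0.0504), or without any single library, and reached 0.325 with length and GC trends removed. The count of 4 lower genes was 0 without cluster KO 2, cluster KO 3, WT 2 or WT 3, 1 without WT 1, and 6 without cluster KO 1.

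Immediate early mRNAs carry AU-rich elements, and genes of AU-rich mRNA decay and stability went both ways: 5 of 14 rose and 6 fell, beside 15.9% and 12.1% of all genes tested, with a median log2 fold change of 0.04. Cnot8, a deadenylase subunit, was at 186, 244 and 260.0 CPM, beside 128, 110.3 and 87.6 CPM in wildtype, for a log2 change of 1.08 (SE 0.17, edgeR adjusted p = 0.00302). Besides Zfp36 and Btg2, the stabilising factor gene Elavl1 (0.82, SE 0.19) and the deadenylase gene Cnot7 (0.63, SE 0.18) rose. Khsrp (-1.05, SE 0.19), Cnot6 (-0.66, SE 0.14), Hnrnpd (-0.48, SE 0.10) and Tial1 (-0.58, SE 0.13), also on this list, fell. Zfp36l1 (-0.84, SE 0.24) and Zfp36l2 (-0.63, SE 0.15), the relatives of Zfp36 in the list, fell while Zfp36 rose; they were named after their values were seen. Zfp36l2 was at 587, 519 and 370.4 CPM in cluster KO and 757, 730.0 and 792 CPM in wildtype libraries, more abundant in CPM than Zfp36. Elavl1 was not called without WT 2 or WT 3, Cnot7 without cluster KO 2, cluster KO 3, WT 2 or WT 3, and Tial1 without cluster KO 2 or WT 2, and the count of rises was 2 without WT 2 or WT 3 and 3 without cluster KO 2 or cluster KO 3. Of the heat shock genes, which cell stress raises together with immediate early genes, 1 of 11 rose and 3 fell, beside 15.9% and 12.1% of all genes tested, with a median log2 fold change of -0.23. Hspe1 (-0.98, SE 0.13), Hsph1 (-0.69, SE 0.12) and Hsp90aa1 (-0.58, SE 0.10) fell, and Hspa8 rose (0.51, SE 0.15). The Hspa8 call was lost without any 1 of cluster KO 2, cluster KO 3, WT 1, WT 2 and WT 3, and with length and GC trends removed (edgeR adjusted p up to 0.113). The stress-inducible Hspa1b was at 6.03 to 7.31 CPM against 6.19 to 15.7 CPM.

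Some markers of marrow cell types also differed between the libraries. Among all genes tested 15.9% were called higher and 12.1% lower. Counts of a list near those shares are no result about its cell type. Beside each list stand its most abundant genes, and other genes were named after their values were seen. B lineage markers were higher in 8 of 11 genes and lower in 0, Igll1 and Cd79a among them, with a summed level of 1950.0 to 2148 CPM in cluster KO and 675 to 746 CPM in wildtype libraries. The dendritic cell list rose in 5 of 7 tested genes (Cd74, H2-Ab1, H2-Aa, Flt3 and Irf8), at summed levels of 623 to 757 CPM against 327 to 386 CPM. These rises were not assigned to a cell type. Siglech and Bst2 did not pass, Itgax was too low to be tested, and Flt3 is also on the early progenitor list. Neutrophil markers rose in 6 of 14, among them Ltf and Ngp, while the most abundant, S100a8 and S100a9, did not pass, and the sums overlapped at 10900.0 to 20680.0 CPM against 6425 to 12140.0 CPM. Of the stem and early progenitor markers 6 of 12 rose, Cd48 among them, and Kit fell, with sums of 1714 to 1756 CPM against 1392 to 1436 CPM. Mast cell, basophil and eosinophil markers rose in 2 of 6, Cpa3 and Hdc (162 to 189 CPM against 67.6 to 114 CPM), and Ms4a2, Fcer1a, Prss34 and Epx were each at 0 in at least 1 library.

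The counts of the lists that follow also stand beside 15.9% of all genes tested higher and 12.1% lower. Monocyte and macrophage markers rose in 1 of 12, Cd68, and the most abundant, Ly6c2 and Ccr2, did not pass (sums of 180.5 to 295 CPM against 164 to 174 CPM). T and NK markers rose in 3 of 9, Trbc1, Trbc2 and Lck, while Nkg7 did not pass (514 to 662 CPM against 425 to 520.4 CPM). Erythroid markers fell in 5 of 10, namely the globin genes Hba-a1, Hba-a2, Hbb-bs and Hbb-bt and the receptor gene Epor, while the most abundant, Car1 and Klf1, did not pass (4245 to 5273 CPM against 5329 to 5724 CPM). Megakaryocyte and platelet markers fell in 2 of 7, Pf4 and Itga2b, and rose in 1 (280 to 284 CPM against 418 to 509 CPM). Of the stroma and endothelium markers 1 of 6 rose, Pecam1, while Cxcl12 did not pass (52.2 to 155 CPM against 37.0 to 82.5 CPM), and Col1a1, Col3a1 and Cdh5 were at 0 in at least 1 library. The part of the cell mix in the levels of the immediate early genes was not tested.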

How the data were processed

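RNA of mouse bone marrow was sequenced in 6 libraries, with poly(A) chemistry and an unstranded Nextera XT kit per the labels' protocols. The submitters' processing notes name bcl2fastq, TopHat2, HTSeq and mm10; the sources used here do not state versions, annotation release or counting mode. The authors deposited whole-number counts of reads for each Ensembl gene. The 5 HTSeq summary rows entered neither library sizes nor tests. Groups came from the sample titles.

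Symbols, positions and lengths came from GENCODE M21 on GRCm38 (47310 of 47729 genes matched), promoters from RefSeq. The whole table was fitted with edgeR 4.0.16 in R 4.3.3: TMM, filterByExpr (minimum count 10), robust quasi-likelihood F-test with genotype as the only term, and Benjamini-Hochberg at 0.05 over all genes tested. SE is the log2 fold change divided by the square root of F. Alternatives were DESeq2 1.42.0 size factors, the DESeq2 test, limma 3.58.1 voom, no filter, length and GC offsets, the replicate number as a block, and each library left out. Scripts were first tested on simulated data. Transcript length is the median over annotated transcripts.

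A count of 0 allows 3 counts per library (0.126 to 0.17 CPM); this covers counting error only. The rule for named genes took all 10 members, up to 4 genes per direction with the smallest p among those that passed in each related list, the 2 highest markers of each cell type, and the 5 genes most like Fos. Members and lists were chosen with earlier results of these data known, so their counts are descriptions. Some genes that this rule names are not reported here.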

Additional observations from a re-analysis of the deposited data

How the results depend on the processing

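Dusp1, Junb, Ier2 and Fos passed under all 12 alternatives; Ier3 passed under 9 and Jund under 5. The number of the 10 genes that rose was 4 to 6 with single libraries left out, and 0 fell in each; it was 5 with the replicate block and 4 with length and GC trends removed. Egr1 changed sign once: with single libraries left out its log2 fold change ran from -0.01 (without cluster KO 1) to 0.26 (without cluster KO 3). Over all genes, single left-out libraries gave 1258 to 3151 higher and 742 to 2579 lower calls. The replicate numbers did not pair the libraries (same-number correlations of deviations -0.122, 0.015 and -0.089); the replicate block gave 1331 higher and 865 lower calls, and Jund an adjusted p of 0.0664. Counts with single libraries left out ran from 4 to 9 higher and 0 to 1 lower for further immediate early genes, 1 to 2 and 0 to 1 for AP-1 and bZIP partners, 2 to 5 and 1 to 4 for MAP kinases, 0 to 1 and 0 to 6 for SRF, TCF and CREB factors, 1 to 2 and 0 to 0 for phosphatases, 2 to 5 and 4 to 6 for AU-rich factors, and 0 to 2 and 3 to 4 for heat shock genes. With the replicate block, 2 MAP kinases were higher and 1 lower, 0 SRF, TCF and CREB factors and 0 bZIP partners were lower, 2 AU-rich factors were higher and 3 lower, and 0 heat shock genes were higher. Without the low-count filter 1 MAP kinase and 2 SRF, TCF and CREB factors were lower. With length and GC trends removed 1 further immediate early gene was lower and 0 heat shock genes were higher. DESeq2 gave 2 bZIP partners and 2 phosphatases higher, and limma-voom 2 bZIP partners. Fits without a library use fewer samples; otherwise the cause was not tested. Of 480 combinations of 40 named genes with an alternative, 381 kept direction and side of the threshold and 98 kept direction only.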

Other observations

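Genes whose level followed that of Fos most closely over the 6 libraries were Pctp, Haspin, Tle6, Zfp825 and Scrn2, out of 9452 protein-coding autosomal genes with a mean of at least 5 CPM. Pctp, a phosphatidylcholine transfer protein gene, was at 27.4, 34.9 and 39.3 CPM in cluster KO and 17.9, 16.6 and 17.9 CPM in wildtype libraries. Haspin, a histone H3 kinase gene, was at 18.3, 24.0 and 27.7 CPM against 12.1, 11.6 and 12.7 CPM. Tle6, a corepressor gene, was at 19.3, 25.6 and 30.0 CPM against 13.4, 12.2 and 13.6 CPM. Zfp825 was at 51.0, 65.2 and 75.5 CPM against 34.0, 33.1 and 36.1 CPM, and Scrn2 at 16.8, 29.5 and 32.9 CPM against 9.4, 8.14 and 8.95 CPM. Each of the 5 was lowest among the cluster KO libraries in cluster KO 1 and highest in cluster KO 3, as Fos was. Likeness was measured by Pearson's r of log2 CPM, which reached 0.998 to 0.999 over these 6 libraries; 662 of the genes compared were above 0.95, since the libraries fall into 2 genotypes, and none of the 5 is an immediate early gene by the lists used here.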
